A study of Mus musculus with 8 samples.

Results

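C9orf72, Smcr8 and Wdr41 encode the 3 subunits of the C9orf72 complex, and they are described here in bone marrow-derived macrophages (BMDMs) with and without Nudt21. The 3 genes were selected by their symbols from 21080 in the deposited tables, and they were chosen from these data with their measured differences between the genotypes known, the opposite directions of C9orf72 at 0 h and 4 h among them. Those differences are therefore given as values and standard errors, without a test. BMDMs are differentiated in culture from the marrow of the mice. All mice had a C57BL/6 background. The WT mice were sex-matched littermates that carried the LysM Cre transgene, and the Nudt21-cKO mice were Nudt21 fl/fl with the same transgene, which drives Cre recombinase in myeloid cells, so Cre was present in both genotypes. RNA was sequenced from 2 WT and 2 cKO samples without stimulation (0 h) and from 2 WT and 2 cKO samples given IFNγ overnight and then LPS for 4 h, 8 samples in all, and each sample pooled the cells of 2 mice. The treatment field of the labels names the stimulation for all samples, and the 0 h samples were taken as untreated from their titles. No unit is named for the values. Each was taken, from the values themselves, as the mean read coverage per base of a gene. On that reading levels can be set side by side between genes, and the number of reads behind a value is unknown.

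C9orf72 and SMCR8 are proteins with DENN domains that sit together with the WD-repeat protein WDR41 in one stable complex. C9orf72 and SMCR8 together stimulate GTP hydrolysis by small GTPases of the Rab and Arf families, SMCR8 binds the ULK1 kinase complex that starts autophagy, and WDR41 brings the complex to the lysosome through the transporter SLC66A1 (PQLC2) when cationic amino acids are scarce. A repeat expansion in an intron of human C9orf72 is the commonest known genetic cause of amyotrophic lateral sclerosis and frontotemporal dementia, and mice without C9orf72 have overactive myeloid cells.

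Nudt21 encodes the CFIm25 subunit of cleavage factor Im, which binds UGUA in pre-mRNA upstream of poly(A) sites and helps to select where the 3' end is cut. For this reason the annotated 3' ends of the 3 genes were read from GENCODE M21 on GRCm38, using transcripts matched to RefSeq. C9orf72 lies on chromosome 4 from 35191285 to 35226175 on the minus strand, and its 2 matched transcripts share one 3'UTR of 1595 bases. Smcr8 lies on chromosome 11 from 60777524 to 60788287 on the plus strand and has 2 alternative 3' ends. Its short transcript has 1 exon and ends within the intron of the long one, after a 3'UTR of 682 bases, while the long transcript has 2 exons and a 3'UTR of 4080 bases. Wdr41 lies on chromosome 13 from 94976344 to 95023314 on the plus strand, with a 3'UTR of 1488 bases. The windows around the last poly(A) signal of each 3' end (AATAAA or ATTAAA, searched on the transcript strand only) are shown because a hexamer of this kind usually stands just before a cleavage site; the signal is in capitals and each run reads 5' to 3'.
C9orf72, chr4:35191290-35191319, minus strand: tggggaattttgAATAAAatacctttgaaa
Smcr8 short, chr11:60781035-60781064, plus strand: agaaaataggaaAATAAAgttgacttattg
Smcr8 long, chr11:60788250-60788279, plus strand: cagcaatgtacaAATAAAgactctttcaga
Wdr41, chr13:95022776-95022805, plus strand: aagcttggtagcATTAAAatcatagggcga
The signals of C9orf72 and of the short Smcr8 transcript begin 21 bases from the end of the transcript and that of the long Smcr8 transcript begins 26 bases from it, counted from the first base of the signal. In Wdr41 the last match of either hexamer begins 526 bases before the annotated end, so its window does not mark that end.

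The 3'UTR of C9orf72 holds 12 TGTA (UGUA in RNA), or 7.52 per kilobase, a density above that of 78.0% of 16146 genes whose longest matched 3'UTR was at least 200 bases long. The long 3'UTR of Smcr8 holds 20 TGTA (4.90 per kilobase, above 48.2% of genes), the short one holds 3 (4.40 per kilobase) and that of Wdr41 holds 9 (6.05 per kilobase, above 62.7% of genes). The TGTA nearest before the last signal of each 3' end, in capitals, is printed to show the letters that CFIm25 recognizes beside the signals above. In Wdr41 a later TGTA, at base 1447 of the 3'UTR, lies nearer the annotated end.
C9orf72, chr4:35191334-35191363, minus strand: tattgaagcatgTGTAaacactgttatata
Smcr8 short, chr11:60780880-60780909, plus strand: actccaataactTGTActctgctgttctat
Smcr8 long, chr11:60788244-60788273, plus strand: gcaattcagcaaTGTAcaaataaagactct
Wdr41, chr13:95022681-95022710, plus strand: cagatgtgtgtgTGTAcacacgtactctgc
These are matches of letters and not measured binding sites. Earlier matches of either poly(A) hexamer begin at base 746 of the 3'UTR of C9orf72 and at base 825 of that of Wdr41. The first match in the long 3'UTR of Smcr8 begins at base 3866. One value was deposited per gene, so the use of alternative 3' ends was not measured here for any of the 3 genes. A switch between 3' ends would itself move a per-base average over the whole gene, and its part in the values below was not tested.

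Coverage summed over all genes ran from 14950347 to 17954882 per sample. Nudt21 had a coverage of 718 and 641 in WT against 158 and 172 in cKO at 0 h, and of 547 and 575 in WT against 142 and 115 in cKO at 4 h, so every library matched its label (limma adjusted p = 0.0462 at 0 h and 0.0445 at 4 h, and 0.0975 to 0.246 at 4 h when 1 sample was left out). All 8 macrophage markers searched, Csf1r and Adgre1 among them, were detected, with a summed coverage of 64070 to 132928 per sample. Single markers differed between the genotypes in both directions. At 0 h the log2 difference of cKO from WT was -0.66 for Adgre1 and -0.89 for Fcgr1, against 0.69 for Cd68. At 4 h it was 1.07 for Cd68 and 0.82 for Lyz2, against -0.46 for Adgre1. The 14 markers of other cells summed to 123 to 564. Among them Pecam1 was lower in cKO (-1.15 at 0 h and -1.02 at 4 h) and Zbtb46 was higher at 4 h (1.53). The 6 genes of the response to IFNγ and LPS, such as Nos2 and Il6, summed to 282 to 499 at 0 h. At 4 h these 6 genes summed to 529170 to 696817. The median gene was 0.31 higher (log2) in cKO than in WT at 4 h and 0.10 higher at 0 h, and it was 1.17 lower at 4 h than at 0 h when both genotypes were averaged. Fewer cells of a type and less RNA per cell cannot be told apart in these bulk samples. The study's methods give each sample as a pool of 2 mice, and whether same-numbered samples of 0 h and 4 h came from the same mice is not stated in the sources used here.

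C9orf72 was the member with the lowest coverage at 0 h and the one with the highest at 4 h. In unstimulated WT cells its coverage was 556 and 603, and in unstimulated cKO cells it was 779 and 787. After stimulation it was 2340.1 and 2184 in WT against 1714 and 1742 in cKO. All 4 stimulated samples thus lay above all 4 unstimulated ones, the cKO samples lay above the WT samples at 0 h, and they lay below them at 4 h. The group means were 579.8 ± 33.0 (SD, n = 2) for WT and 783 ± 5.85 (SD, n = 2) for cKO at 0 h, and 2262 ± 110.3 (SD, n = 2) for WT and 1728 ± 19.7 (SD, n = 2) for cKO at 4 h. On the log2(coverage + 0.1) scale the difference of cKO from WT was 0.43 (standard error 0.11) at 0 h and -0.39 (standard error 0.10) at 4 h. The genotype difference at 4 h minus that at 0 h was -0.82 (standard error 0.13). With 4 other scalings of the samples (centring each on its median gene, quantile normalization, equal summed coverage, and centring on genes with a coverage of 300 to 2000) the difference kept its sign at both times, at 0.31 to 0.34 at 0 h and -0.72 to -0.60 at 4 h. Of 14210 genes compared at both times, 385 (2.71%) likewise had non-overlapping genotypes at both, with cKO above WT at 0 h but below it at 4 h, and C9orf72 was selected with that pattern known.

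Smcr8, which supplies the other DENN protein of the complex, had higher coverage in cKO at both times. At 0 h its coverage was 726 and 847 in WT against 1023 and 1112 in cKO. At 4 h it was 443 and 486 in WT against 841 and 807 in cKO. The 2 cKO samples lay above the 2 WT samples at each time, and the stimulated cKO samples lay within the range of the unstimulated WT ones. The means were 786 ± 85.1 (SD, n = 2) and 1068 ± 62.7 (SD, n = 2) at 0 h, and 464 ± 30.3 (SD, n = 2) and 824 ± 23.8 (SD, n = 2) at 4 h, WT first. The difference of cKO from WT was 0.44 (standard error 0.14) at 0 h and 0.83 (standard error 0.11) at 4 h on the log2 scale, and the latter is a 1.77-fold ratio of the group means. The change of this difference between the times was 0.38 (standard error 0.17). Under the same 4 scalings the difference was 0.49 to 0.62 at 4 h, and its change between the times was 0.048 to 0.30. Near its 3' end Smcr8 overlaps the last part of Shmt1 on the opposite strand in GENCODE M21. In the RefSeq coordinates used here for neighbours the 2 genes do not overlap, and Shmt1 lies 610 bases beyond Smcr8. The values were deposited per RefSeq gene. The library kit does not mark the strand, so reads of any overlap cannot be told apart. Shmt1 had a mean coverage of 47.5 in WT and 161 in cKO at 0 h and of 22.5 and 47.6 at 4 h, all below that of Smcr8, and its part in the values of Smcr8 was not tested.

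Wdr41, the subunit that contacts the lysosome, differed least between the genotypes. Its coverage was 917 and 934 in WT against 938 and 987 in cKO at 0 h. At 4 h it was 230.2 and 247 in WT against 307 and 312 in cKO. The genotypes did not overlap at either time, but at 0 h the nearest WT and cKO samples were 934 and 938. The means were 925 ± 12.2 (SD, n = 2) in WT and 962 ± 34.4 (SD, n = 2) in cKO at 0 h, a difference of 0.06 (standard error 0.10) on the log2 scale, and 238 ± 11.8 (SD, n = 2) and 309.6 ± 3.54 (SD, n = 2) at 4 h, a difference of 0.38 (standard error 0.10). The sign at 0 h turned under each of the 4 other scalings, to between -0.068 and -0.036. That at 4 h lay close to the median of all genes tested (0.31), and after each sample was centred on its median gene it was 0.041. Gm48350, an antisense gene that overlaps Wdr41, had a mean coverage of 89.6 in WT and 46.9 in cKO at 0 h and of 7.59 and 7.04 at 4 h.

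None of the members' groups overlapped between genotypes at either time, which was also so for 66.0% of 14950 genes at 4 h and 57.0% of 16251 genes at 0 h. With 2 samples a group this is a description of these libraries. The plot of coverage by sample shows the members beside Nudt21.

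**Figure D1:**
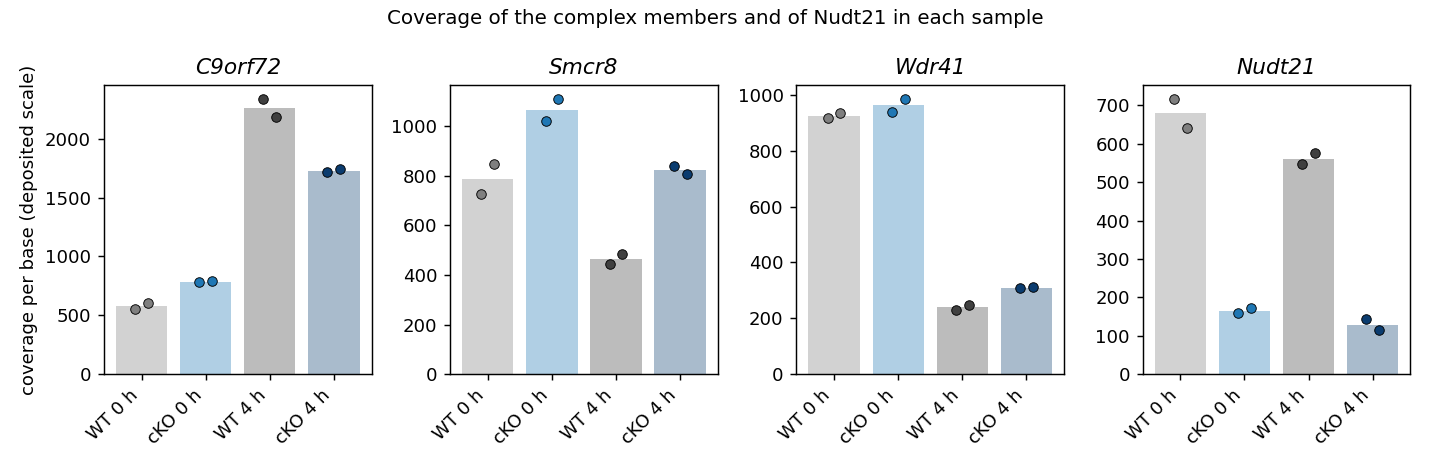
Coverage per base (linear axis, deposited scale) of C9orf72, Smcr8, Wdr41 and Nudt21 in the 4 groups. Points are samples (2 per group) and bars are group means. C9orf72 is highest in WT at 4 h (2340.1 and 2184), Wdr41 falls to between 230.2 and 312 at 4 h, and Nudt21 is at or below 172 in every cKO sample.

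Stimulation averaged over both genotypes is a comparison separate from the genotype differences that were known when the members were selected. Whether earlier results on stimulation entered that selection is not known here. Stimulation was tested with limma over all 8 samples as the average of both genotypes, with Benjamini-Hochberg adjustment over 16284 genes. A call needed a change of more than 1.5-fold with an adjusted p under 0.05. C9orf72 rose, with a log2 fold change of 1.55 (standard error 0.07, limma adjusted p = 2.35e-05), in a direction that 13.2% of all genes were called in. Wdr41 fell, with -1.80 (standard error 0.06, limma adjusted p = 1.43e-05), as did 57.9% of all genes. Smcr8 had a log2 fold change of -0.57 (standard error 0.09, limma adjusted p = 0.00211), which did not reach 1.5-fold. With 1 sample left out this value ranged from -0.62 to -0.51, on both sides of 1.5-fold. The ratio of group means for C9orf72 was 3.90 in WT and 2.21 in cKO. WT had 1.69 times and cKO 1.30 times as much Smcr8 at 0 h as at 4 h, and for Wdr41 these ratios were 3.88 and 3.11. The 2 times come from separate deposited tables, in which no scaling between samples was found.

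The direction for Smcr8 depended on how the samples were scaled. Its log2 difference was -0.56 at equal summed coverage and -0.07 after quantile normalization. It was 0.13 after centring on genes with a mean coverage of 300 to 2000. After centring on the median gene it was 0.77 (limma adjusted p = 0.00058), which met the rule for a call, higher at 4 h. C9orf72 was higher at 4 h under all of these scalings, from 1.56 to 2.89. Wdr41 was lower under all of them, from -0.46 to -1.79, and with -0.46 after centring on the median gene it did not reach 1.5-fold. Genes of a coverage like that of the members, 300 to 2000 on average (4670 genes), had a median stimulation difference of -0.76, and relative to it C9orf72 stood at 2.32, Smcr8 at 0.20 and Wdr41 at -1.03.

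**Figure D2:**
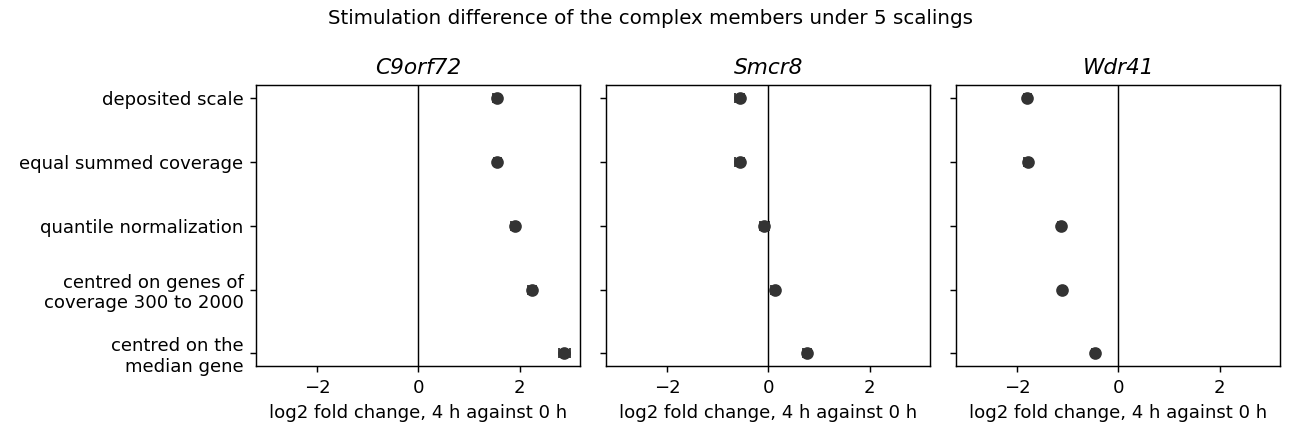
Log2 fold change of 4 h against 0 h, averaged over both genotypes, for each member (panels) under 5 scalings of the samples (rows). Points are limma estimates and bars are standard errors, most of them shorter than the point. C9orf72 stays above 0 (1.55 to 2.89), Wdr41 stays below 0 (-0.46 to -1.80) and Smcr8 crosses 0 (-0.57 to 0.77).

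A ratio of 2 members within one sample does not depend on a constant factor for that sample, while quantile normalization can change it. The ratio of C9orf72 to Smcr8 was 0.766 and 0.712 in WT against 0.761 and 0.708 in cKO at 0 h. At 4 h it was 5.29 and 4.50 in WT against 2.04 and 2.16 in cKO. The genotypes therefore had overlapping ratios before stimulation, and after it the WT ratios were above both cKO ratios. The ratio of C9orf72 to Wdr41 was 0.607 and 0.646 in WT against 0.830 and 0.798 in cKO at 0 h, and 10.2 and 8.85 in WT against 5.58 and 5.58 in cKO at 4 h. The ratio of Smcr8 to Wdr41 was higher in cKO at both times, with 0.792 and 0.907 in WT against 1.09 and 1.13 in cKO at 0 h and 1.92 and 1.97 against 2.74 and 2.58 at 4 h.

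Of the summed coverage of the 3 genes, C9orf72 held 25.3% of each WT sample and 28.4% and 27.3% of the 2 cKO samples at 0 h. It held 77.7% and 74.9% in WT against 59.9% and 60.9% in cKO at 4 h. The share of Smcr8 was 33.0% and 35.5% in WT against 37.3% and 38.5% in cKO at 0 h. At 4 h it was 14.7% and 16.6% in WT against 29.4% and 28.2% in cKO. Wdr41 had the largest share in WT at 0 h (41.7% and 39.2%) and the smallest in every sample at 4 h (7.64% and 8.46% in WT, 10.7% and 10.9% in cKO). The sum of the 3 genes ran from 2199 to 2886 at 0 h and from 2861 to 3013 at 4 h. These are shares of RNA coverage, and the amounts of protein were not measured here.

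**Figure D3:**
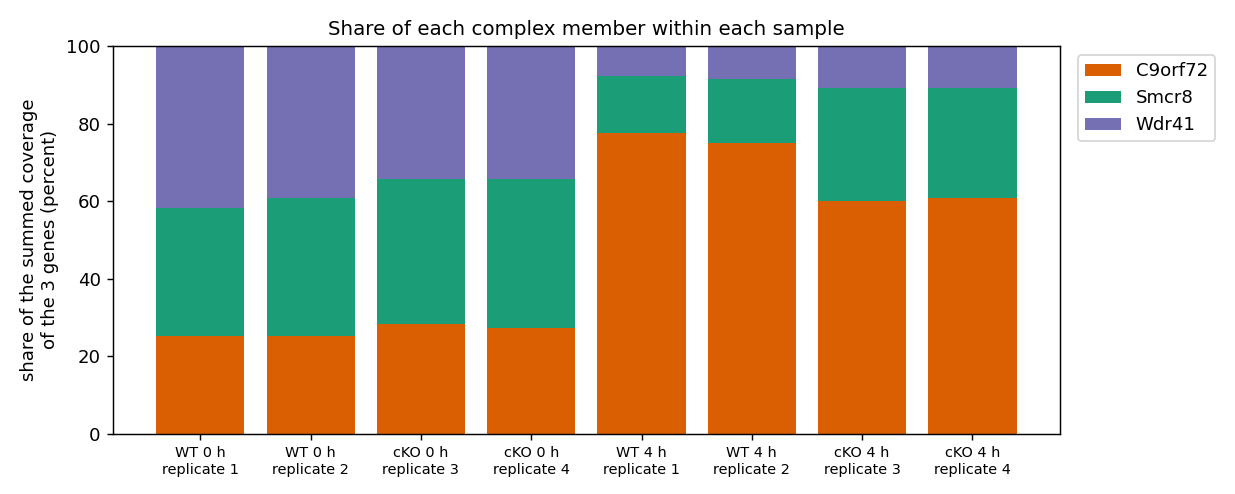
Share of each member in the summed coverage of the 3 genes (percent, stacked to 100) in each of the 8 samples. C9orf72 holds 25.3% to 28.4% at 0 h, 74.9% and 77.7% in WT at 4 h, and 59.9% and 60.9% in cKO at 4 h.

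The coverage of C9orf72 exceeded that of 73.1% of genes with a mean of at least 0.5 in WT at 0 h and of 92.8% in WT at 4 h. Smcr8 exceeded 79.2% and 75.9% and Wdr41 exceeded 82.1% and 65.6% of them in the same groups. At 0 h in WT the order was Wdr41, Smcr8, C9orf72, and the sample values of no pair of neighbours overlapped. In cKO at 0 h Smcr8 was above Wdr41, and both samples of Wdr41 (938 and 987) lay below those of Smcr8 (1023 and 1112). At 4 h both genotypes had the order C9orf72, Smcr8, Wdr41.

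Across the 8 samples, which fall into 4 groups separated mainly by stimulation, the genes of at least 10 mean coverage whose log2 values were most like those of C9orf72 by Pearson correlation were 2010110E17Rik (r = 0.998), Myo1g (0.997), Plaur (0.997), Mdfic (0.997) and Rsbn1 (0.996), among 12023 genes. For Smcr8 they were Frs2 (0.998), Vps36 (0.993), Nhlrc3 (0.993), Ankrd13c (0.992) and Eme2 (0.992). Those for Wdr41 were Mfsd6, Wipf1 and Cerk (each 0.9996) with P2rx7 and Cpped1 (each 0.9994). Between the members the correlation was -0.66 for C9orf72 with Smcr8, -0.98 for C9orf72 with Wdr41 and 0.74 for Smcr8 with Wdr41. These values describe the 4 groups and carry no test.

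On chromosome 4 the tested neighbour of C9orf72 on its 3' side, Mob3b, is a kinase activator family gene that starts 33761 bases away. Its mean coverage was 84.5 in WT and 92.4 in cKO at 0 h and 465 in WT and 351 in cKO at 4 h. Aco1, the nearest tested gene on the other side at 4917112 bases, encodes an aconitase, and its means were 1106 in WT and 1169 in cKO at 0 h and 210.4 and 345 at 4 h. The mean of Mob3b was thus higher at 4 h than at 0 h and lower in cKO than in WT at 4 h, as with C9orf72, and Aco1 had the opposite order in both. Top3a, a DNA topoisomerase gene 160 bases from the start of Smcr8 on the opposite strand, had means of 250.4 and 247 at 0 h and of 91.4 and 126 at 4 h, WT first. Tbca, a tubulin folding cofactor gene beside Wdr41, had means between 2126 and 2432 in all 4 groups. RefSeq promoter windows (250 bases before to 50 after the start) were found for C9orf72 and Wdr41 on GRCm38.p6 and not for Smcr8. On either strand neither held the E-box CACGTG, present in 7.15% of 32851 promoters, the GAS motif TTCNNNGAA (8.30%), the AP-1 motif TGANTCA (7.81%), the kB core GGAANNTCC (4.26%) or the ISRE core GAAANNGAA (8.56%).

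The partners and relatives of the complex were taken from a list chosen with earlier results of these data known, so their p-values are descriptions. The list held 90 genes, of which 89 were tested (Rab39b was below the coverage limit). At 4 h, 24 of them were called higher and 1 lower in cKO than in WT, by a fold change above 1.5 and an unadjusted limma p under 0.05, against 20.8% of all genes called higher and 4.17% called lower. Their median log2 difference was 0.37, beside 0.31 for all genes. After each sample was centred on its median gene, 13 were called higher and 9 lower, against 10.4% and 9.90% of all genes under the same scaling. At 0 h, 7 were called higher and 3 lower, against 8.99% and 5.61% of all genes, with a median of 0.18 beside 0.10. The share of all genes with limma's adjusted p under 0.05 is not given here. In the list, 3 genes passed that threshold at 4 h, namely Flcn, Rragd and Sqstm1. Their adjusted p was 0.0042 to 0.0909 under the other settings and 0.0975 to 0.324 when any 1 of the 4 samples of 4 h was left out. Of the 31 calls between genotypes named below, 17 held under every setting and sample left out, and the other 14 did not under at least 1 of them (Rab1a, Lamtor5, Rragb and Fnip1 at 0 h, Tia1 at both times, and Mlst8, Pqlc2, Nprl2, E330009J07Rik, Irf7, Cgas, Ubqln2 and Tuba4a at 4 h).

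Of the 5 genes of the ULK1 complex, which starts autophagy and binds SMCR8, 3 were called higher in cKO at 4 h, against 20.8% of all genes. Ulk1, the kinase itself, had a coverage of 75.0 and 82.5 in WT against 164 and 186 in cKO at 4 h, a log2 difference of 1.15 (standard error 0.13, limma adjusted p = 0.0547). At 0 h it was 741 and 814 in WT against 753 and 832 in cKO, which overlap, and the difference was 0.03 (standard error 0.13). Ulk2, its paralogue, and Atg13, a regulatory subunit, were 1.61 and 1.23 higher at 4 h on the log2 scale. At 0 h 0 of the 5 were called by limma, against 8.99% of all genes called higher and 5.61% lower, and 1 of them (Ulk2) had an unadjusted p under 0.05, with a log2 difference of 0.56 that did not reach 1.5-fold.

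SLC66A1, the lysosomal transporter that holds WDR41, is listed in the tables as Pqlc2. Its coverage at 4 h was 63.2 and 67.3 in WT against 97.9 and 98.5 in cKO, a log2 difference of 0.59 (standard error 0.10, limma adjusted p = 0.0731). At 0 h it was 656 and 679 in WT and 821 in both cKO samples, a difference of 0.30 that was not called. Pqlc2 fell by 3.21 on the log2 scale with stimulation (standard error 0.06, limma adjusted p = 3.64e-06), beside the -1.80 of Wdr41 on the same scale. After centring on the median gene the values were -1.87 and -0.46. This transporter, the Rag GTPases, Ragulator and mTORC1, which signal amino acid supply at the lysosome, made up a list of 13 genes. At 4 h 4 of the 13 (30.8%) were called higher in cKO, against 20.8% of all genes. The list median of 0.28 lay below the 0.31 of all genes. After centring on the median gene Pqlc2 (0.25) and Mlst8 (0.34) lost the call and Rragd (3.62) kept it. Under that scaling 10.4% of all genes were called higher. At 0 h 3 of the 13 (23.1%) were called higher and 1 (7.69%) lower, against 8.99% and 5.61% of all genes.

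Rragd, one of the Rag GTPases, had the largest differences of the list. Its coverage was 157 and 204 in WT against 985 and 1129 in cKO at 0 h, and 7.19 and 12.4 in WT against 133 and 165 in cKO at 4 h. The log2 difference was 2.55 (standard error 0.20, limma adjusted p = 0.0639) at 0 h and 3.96 (standard error 0.35, limma adjusted p = 0.0475) at 4 h. Rragb, a related GTPase, was low in all samples, with 18.3 and 16.7 in WT against 8.36 and 5.24 in cKO at 0 h, where it was called lower by 1.39 on the log2 scale. Lamtor5 of Ragulator was called 0.74 higher at 0 h and Mlst8 of mTORC1 0.68 higher at 4 h.

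FLCN and FNIP form a DENN-domain pair that resembles C9orf72 with SMCR8 in structure and acts on the Rag GTPases, and GATOR1 is the GTPase-activating complex beside it. Of these 6 genes, 4 were called higher in cKO at 4 h and 1 at 0 h, against 20.8% and 8.99% of all genes. Flcn had a coverage of 48.3 and 50.5 in WT against 121 and 123 in cKO at 4 h, a log2 difference of 1.30 (standard error 0.10, limma adjusted p = 0.0451). Fnip2 and Fnip1 were 1.09 and 0.94 higher at 4 h, Nprl2 of GATOR1 was 0.77 higher, and Fnip1 was 0.60 higher at 0 h. Among 21 other genes of the DENN family, which mostly encode activators of Rab GTPases, 4 (19.0%) were called higher at 4 h, close to the 20.8% of all genes. Those with the largest differences were Dennd1b (1.08), Dennd6b (1.04) and E330009J07Rik, the row for Dennd11 (0.90). St5, the row for Dennd2b, was called 1.38 higher at 0 h at a coverage of 10.4 to 32.4.

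Of 11 small GTPases tested that are linked to the complex or its traffic, 1 (9.09%, against 20.8% of all genes) was called higher in cKO at 4 h, namely Arf6 (0.93). At 0 h 2 of them (18.2%, against 8.99% of all genes) were called higher, Rab8b (0.83) and Rab1a (0.59). The kinase TBK1 phosphorylates SMCR8. Tbk1 had a coverage of 2248 and 2264 in WT against 2807 and 2696 in cKO at 4 h, a log2 difference of 0.29 (standard error 0.10) that was not called and lay below the median of all genes. It rose with stimulation by 0.60 on the log2 scale (standard error 0.07, limma adjusted p = 0.000722). That difference was 1.93 after centring on the median gene and 1.29 after centring on genes with a coverage of 300 to 2000, and it was under 1.5-fold (0.56 to 0.58) without WT replicate 2 of 0 h, cKO replicate 3 of 0 h or cKO replicate 3 of 4 h. Among the autophagy receptors listed with it, Sqstm1 (p62) was 14718 and 13795 in WT against 36932 and 41399 in cKO at 4 h, a log2 difference of 1.46 (standard error 0.12, limma adjusted p = 0.047). Nbr1 was 0.998 higher at the same time.

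Of 7 genes of nucleic acid sensing, 2 (28.6%, against 20.8% of all genes) were called higher in cKO at 4 h, namely Irf7 (0.91) and Cgas (0.69). The median of the 7 was 0.02, below the 0.31 of all genes, and the lowest was Tmem173, the row for Sting1, at -0.60. At 0 h Unc93b1 was called lower by 0.70 and the other 6 were not called, against 5.61% of all genes called lower. Of 20 other genes linked to amyotrophic lateral sclerosis or frontotemporal dementia, 4 (20.0%) were called higher and 1 of 20 lower at 4 h, close to the 20.8% and 4.17% of all genes. Ccnf (1.13), Ubqln2 (0.89) and Tuba4a (0.77) were higher, and Tia1, an RNA-binding protein of stress granules, was lower by 0.81 at 4 h and by 0.68 at 0 h. With stimulation, averaged over the genotypes, 12 of the 89 related genes (13.5%) were called higher and 53 (59.6%) lower, close to the 13.2% and 57.9% of all genes. After centring on the median gene 42 and 21 were, beside 34.3% and 23.9% of all genes. All 5 ULK1 complex genes and all 6 FLCN, FNIP and GATOR1 genes were called lower at 4 h on the deposited scale, as Wdr41 was, and after centring on the median gene 2 of the 5 lay above 0 (by at most 0.09) and 4 of the 6 were called lower.

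**Figure D4:**
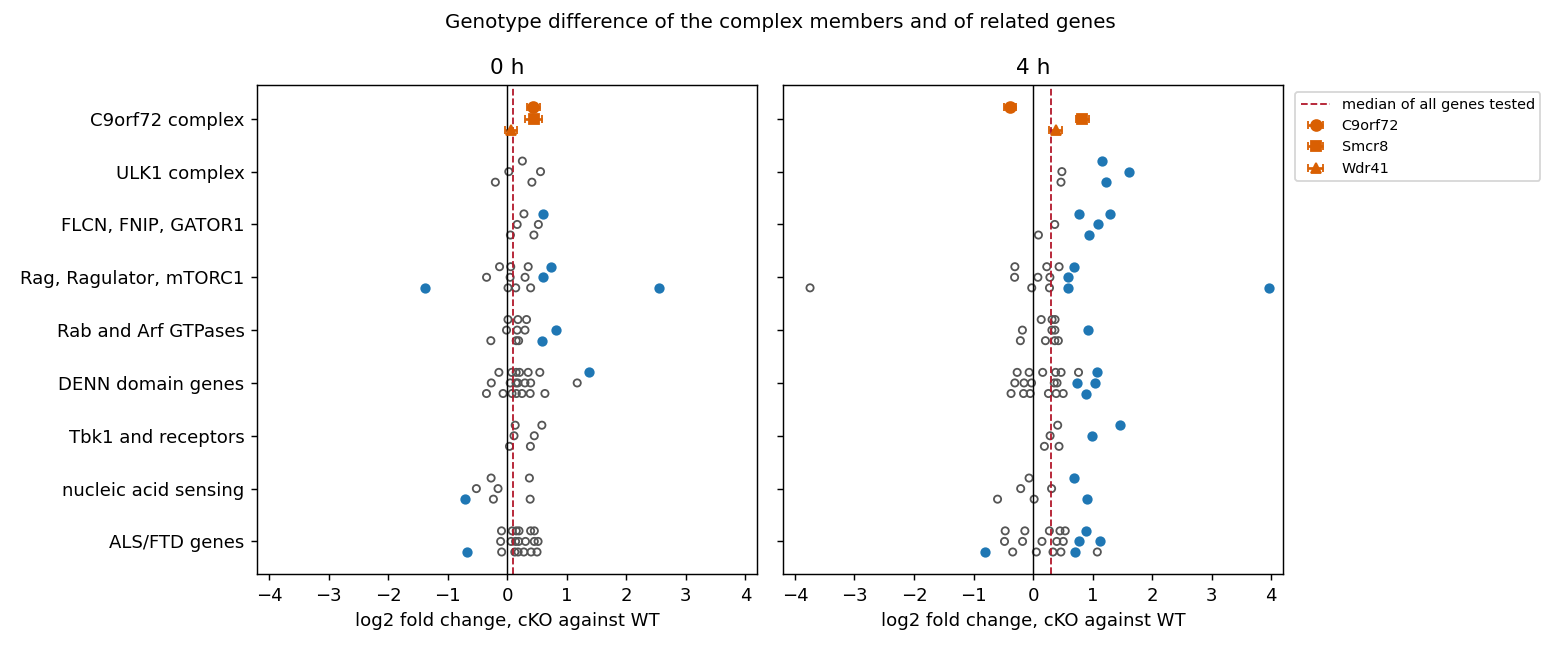
Log2 difference between cKO and WT, without stimulation (0 h, left) and with it (4 h, right), for the members (orange, bars are standard errors) and for the 89 related genes by list (1 point per gene). Filled points were called at a fold change above 1.5 and an unadjusted limma p under 0.05, the members are shown without a call, and the dashed line is the median of all genes tested (0.10 and 0.31). C9orf72 lies at 0.43 at 0 h and at -0.39 at 4 h, while Smcr8 lies at 0.44 and 0.83.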

How the data were processed

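BMDM RNA from 8 samples (2 per genotype and time) was compared. The submitters' processing notes name HISAT2 2.2.1 and StringTie 2.1.7, and the authors aligned reads to GRCm38 and deposited 1 coverage signal per RefSeq gene symbol and sample in 1 table per time. The tables name no unit, and it was read from the values. Columns with the authors' log2 fold changes, p-values and FDR were not used, and 0 columns of per-sample values were left unused.

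Log2(coverage + 0.1) was fitted with limma (version 3.58.1, R 4.3.3), leaving out genes whose mean coverage in the compared samples was under 0.5. Genotypes were compared within each time and stimulation over all 8 samples. The pseudocount understates changes of low genes. The comparison was tested on simulated data. The members and gene lists were chosen with earlier results of these data known. Named genes were the members, Nudt21, up to 4 genes per list with the largest called genotype difference, the partners Ulk1, Pqlc2 and Tbk1, the 5 genes most like each member and the nearest tested neighbours. A related gene's difference is given where it was called. Alternatives covered the pseudocount, the filter, 4 further scalings, the samples in the fit, the replicate block and leaving out each replicate.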

Additional observations from a re-analysis of the deposited data

Results flagged for a closer look

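The genotype difference of C9orf72 at 4 h minus that at 0 h was -0.82 on the log2 scale. It was marked because the genotypes did not overlap at either time, with cKO the higher at 0 h and the lower at 4 h. The difference was not tested here, since the gene was chosen with it known.

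The genotype difference of Ulk1 at 4 h minus that at 0 h was 1.12 (standard error 0.18, limma adjusted p = 0.0475 for the interaction over all genes). It was marked because this test passed, although Ulk1 came from a list chosen with earlier results of these data known. The p-value is therefore a description. The adjusted p was 0.0308 to 0.0787 under the other filters, pseudocounts and scalings, 0.153 with the replicate block and 0.0569 to 0.151 when 1 sample was left out, so the call did not hold when any 1 of the 8 samples was removed. Both cKO samples were above both WT samples at 4 h, and the genotypes overlapped at 0 h.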

How the results depend on the processing

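With 2 samples a group the spread is poorly known, and the number of reads behind a gene's value is not given. The 4 further scalings moved most of the genotype differences. Values below are log2 differences in the order of centring on the median gene, quantile normalization, equal summed coverage and centring on genes of coverage 300 to 2000, and the last was chosen after seeing the data. For C9orf72 they were 0.34, 0.31, 0.31 and 0.31 at 0 h, -0.72, -0.64, -0.60 and -0.69 at 4 h, and -1.09, -0.95, -0.91 and -1.01 for 4 h minus 0 h. For Smcr8 at 4 h they were 0.49, 0.53, 0.62 and 0.52, and for 4 h minus 0 h 0.12, 0.048 and 0.20 without equal summed coverage, under which the value stayed within the replicate spread. For Wdr41 the sign at 0 h turned, with -0.036, -0.068, -0.066 and -0.065, and the values were 0.041, 0.059, 0.17 and 0.073 at 4 h and 0.055, 0.14, 0.23 and 0.14 for 4 h minus 0 h. The stimulation difference of Smcr8 turned to 0.77 with centring on the median gene and to 0.13 with centring on genes of coverage 300 to 2000, and that of Wdr41 shrank to -0.46 with centring on the median gene. The call of C9orf72 with stimulation held under every alternative run.

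Ulk1 at 0 h turned to -0.065, -0.090, -0.096 and -0.094 under the 4 scalings and ranged from -0.044 to 0.098 with 1 sample left out. Tbk1 at 4 h turned to -0.050 with centring on the median gene and -0.018 with centring on genes of coverage 300 to 2000. Related genes called higher at 0 h numbered 4, 3, 3 and 4 under the 4 scalings, and at 4 h 13, 14 and 15 with centring on the median gene, quantile normalization and centring on genes of coverage 300 to 2000. Those called lower at 4 h numbered 9, 9, 3 and 9 under the 4 scalings, 2 with a pseudocount of 1, 0 with no filter and 3 with all 8 samples in one fit. With stimulation 42 were called higher and 21 lower with centring on the median gene, and 20 higher with centring on genes of coverage 300 to 2000. For centring on the median gene, the shares of all genes at 4 h and with stimulation are given above. For every other setting or count here and below, no share of all genes under that setting is given. Those counts are therefore not results about the related genes. Centring on the median gene removes its shift by construction, and the cause of the other changes was not tested.

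Where 1 sample was left out, its group's lone sample was assumed to vary like the other groups. The change of the genotype difference from 0 h to 4 h then ranged from -0.88 to -0.76 for C9orf72 (lowest without WT replicate 2 and highest without WT replicate 1, both of 0 h), from 0.27 to 0.50 for Smcr8 and from 0.27 to 0.37 for Wdr41. The stimulation difference of Smcr8 ranged from -0.62 to -0.51 and passed 1.5-fold in 3 of the 8 such fits. Related genes called higher ranged from 4 to 9 at 0 h, lowest without cKO replicate 4, and from 14 to 27 at 4 h, lowest without cKO replicate 4, and those called lower at 4 h from 0 to 2, with 0 without WT replicate 2.

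Replicate numbers recur at both times, and samples with the same number did not deviate together (r = 0.02 over genes for WT and for cKO). With the replicate block the stimulation differences kept their values, with limma adjusted p = 0.00154 for C9orf72, 0.00956 for Smcr8 and 0.00117 for Wdr41, and 12 related genes were called higher and 52 lower.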
